A study of Homo sapiens with 30 samples.

Results

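The passage from 4 to 7 days of treatment with MS023 was followed in 4 of the 30 libraries of a PRO-seq series on A549 cells, a human lung adenocarcinoma line. The members were chosen by their labels: 2 libraries of cells given 1 µM MS023 for 4 days and 2 of cells given it for 7 days, neither with dexamethasone. Of 58780 genes in the count table, 22919 had enough counts to be tested and are the genes described here. The series holds 15 groups of 2 libraries, and cells of each group were kept in 0.01% DMSO. The other groups used here are cells given 1 µM GSK591 for 4 or 7 days, cells given MS023 for 7 days and then 100 nM dexamethasone (Dex, a glucocorticoid) for 15 min or 3 h, cells given MS023 for 2 days, and cells labelled untreated for 15 min in DMSO. No untreated group is labelled as cultured for 4 or 7 days, so the time under MS023 and the time in culture cannot be told apart. The labels do not say whether the 2 libraries of a group came from separate cultures, so p-values measure the spread between libraries, which may be technical, in 1 cell line.

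MS023 inhibits the Type I protein arginine methyltransferases (PRMTs), of which PRMT1 is the main one in most cells. These enzymes place asymmetric dimethylarginine on histones and on many RNA-binding proteins. GSK591 inhibits PRMT5, the main Type II enzyme, which places symmetric dimethylarginine. PRO-seq labels the RNA that engaged polymerases are extending, and is made to follow transcription rather than stored messenger RNA. In these counts, across 13249 protein-coding genes, log counts rose with exonic length (slope 0.68) and not with intronic length (-0.21), and the feature counted is not given in the sources used here, so how closely the counts follow transcription along a gene was not tested. One pathway met below is the interferon response. Cytosolic sensors of double-stranded RNA switch on interferon genes, interferons signal through a complex that holds STAT2 and IRF9, and this complex binds a promoter element called the ISRE to start antiviral genes such as those of the OAS, IFIT and MX families.

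The 2 libraries at 4 days held 10936943 and 11662350 counts, and those at 7 days 9247921 and 9347165. Mitochondrial genes took 64.9% and 66.1% of counts at 4 days and 58.7% and 59.6% at 7 days, and ranged up to 78.7% in the series. Nuclear genes had 3104754 to 3230824 counts in these 4 libraries. Log2 levels of the 2 libraries of a group correlated with r = 0.983 at 4 days and 0.980 at 7 days across 11117 genes, which are not independent replicates. The epithelial genes KRT7 and KRT18 were high (164 and 164 CPM, counts scaled to library size, for KRT7 at 4 days), as was KRT8 (172 and 176 CPM). EPCAM (5.83 and 6.19 CPM at 4 days) and CDH1 (3.20 and 3.06 CPM), of the same marker list, were low. CDKN2A and CDKN2B, deleted in A549, had 0 to 2 counts per library. MTAP, listed with them as a gene of that deletion, had 182 to 209 counts, so the listed genes were not all absent. Of 7 fibroblast, 7 leukocyte and 5 endothelial markers, 3, 3 and 2 passed the filter on low counts. Their summed level in the 2 libraries was 6.82 and 5.20 CPM at 4 days against 8.50 and 9.41 CPM at 7 days for fibroblast, 14.5 and 13.7 against 15.4 and 16.7 CPM for leukocyte, and 1.63 and 1.42 against 1.35 and 1.66 CPM for endothelial markers. LUM, LYZ and PTPRC had 0 to 2 counts. None of those 8 was called by edgeR at the adjusted p threshold of 0.05 used throughout, and 1 had an unadjusted p below 0.05. Here and below, CPM values are scaled by the TMM method, so that most genes stay level, and compare libraries for the same gene.

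Counts of 2073 genes differed between 7 and 4 days of MS023 (edgeR quasi-likelihood test, Benjamini-Hochberg adjusted p below 0.05), which is 9.04% of the genes tested. Of these, 981 were higher at 7 days (4.28%) and 1092 lower (4.76%). The rise was above 1 on the log2 scale (2-fold) for 326 genes and the fall beyond it for 210. The largest falls among genes with at least 5 CPM were in the antiviral genes OASL and IFIT1 and the mucin gene MUC5AC, and the largest rises in the chemokine gene CCL2 and the small heat shock protein gene HSPB8. The count fell to 1043 and 798 without the first and the second 7-day library and to 1025 and 679 without the first and the second 4-day library. DESeq2 called 922 genes (429 higher, 493 lower). Scaling by total counts alone, which the mitochondrial share moves, shifted the median of all genes from 0.01 to 0.27 and called 967 genes higher and 83 lower. The directions given here are relative to the median gene. In bulk libraries, fewer cells that transcribe a gene and less transcription per cell cannot be told apart.

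**Figure D1:**
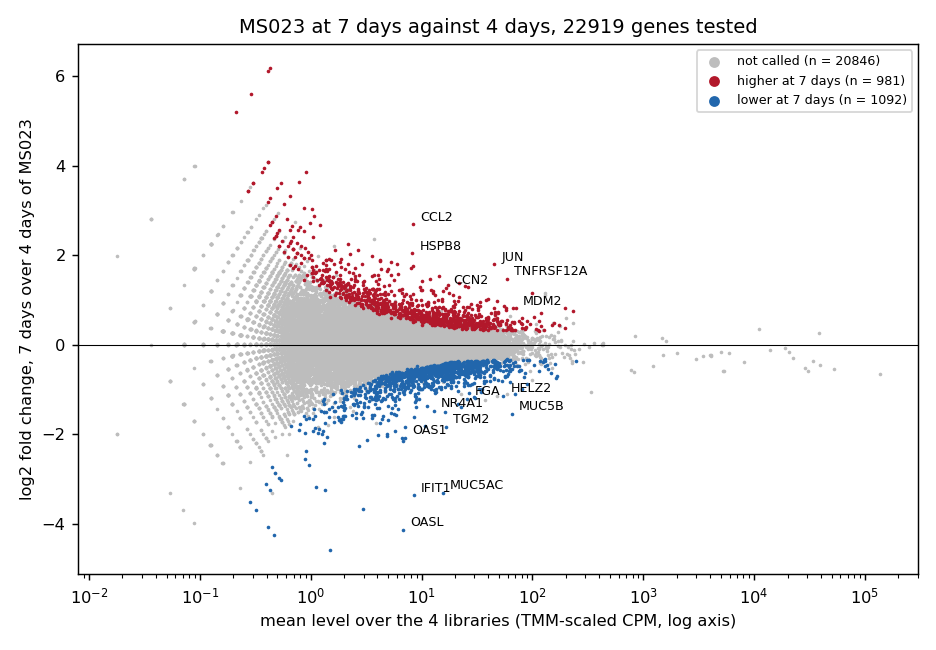
Each point is a gene, placed by its mean TMM-scaled CPM over the 4 libraries (log axis) and by its log2 fold change at 7 against 4 days of MS023. Red points are the 981 genes called higher and blue points the 1092 called lower; OASL, IFIT1 and MUC5AC lie furthest below the line among the labelled genes, and CCL2 furthest above.

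The genes that fell furthest as a list were the interferon-stimulated effector genes, the antiviral proteins that an interferon signal switches on. Promoters of 4 of them and of OAS1 are shown first, since a shared element is visible in the letters. Each sequence is the 200 bases before the RefSeq transcription start (GRCh38.p14), and the capitals mark matches to GAAANNGAAA, the core of the ISRE, on either strand (on the opposite strand it reads as TTTC, a pair of any bases and TTTC).
IFI6, chr1:27672193-27672392, minus strand: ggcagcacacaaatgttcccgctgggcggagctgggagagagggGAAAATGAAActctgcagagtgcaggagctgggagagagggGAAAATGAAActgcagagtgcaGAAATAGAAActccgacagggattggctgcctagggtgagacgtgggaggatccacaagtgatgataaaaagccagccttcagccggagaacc
IFIT1, chr10:89392423-89392622, plus strand: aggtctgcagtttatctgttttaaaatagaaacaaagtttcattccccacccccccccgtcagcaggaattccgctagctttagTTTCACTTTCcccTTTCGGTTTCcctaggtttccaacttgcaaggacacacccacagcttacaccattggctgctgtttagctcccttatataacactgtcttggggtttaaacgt
OAS3, chr12:112938274-112938473, plus strand: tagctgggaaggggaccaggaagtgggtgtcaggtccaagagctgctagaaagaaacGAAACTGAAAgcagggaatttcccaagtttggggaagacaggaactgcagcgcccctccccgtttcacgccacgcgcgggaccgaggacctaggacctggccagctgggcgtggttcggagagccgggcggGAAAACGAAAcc
ISG15, chr1:1013297-1013496, plus strand: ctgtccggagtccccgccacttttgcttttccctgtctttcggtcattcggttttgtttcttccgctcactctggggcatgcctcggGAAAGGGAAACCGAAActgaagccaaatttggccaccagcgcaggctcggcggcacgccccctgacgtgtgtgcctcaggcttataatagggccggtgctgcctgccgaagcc
OAS1, chr12:112906762-112906961, plus strand: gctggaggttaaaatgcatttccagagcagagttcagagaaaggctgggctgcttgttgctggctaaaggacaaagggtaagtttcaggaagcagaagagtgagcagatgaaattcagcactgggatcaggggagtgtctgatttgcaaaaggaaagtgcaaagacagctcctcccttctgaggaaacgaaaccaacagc

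In these 200 bases IFI6 had 3 matches, 156 to 93 bases before the start, IFIT1, OAS3 and ISG15 had 2 each, and OAS1 had no match to this exact pattern. Near its end the OAS1 sequence reads GAAACGAAA, the same repeat with a shorter spacing, which the search does not count. In windows of 300 bases (250 before to 50 after the start), GAAANNGAAA occurred in 3.57% of all 35116 windows of the RefSeq table. Counted by gene, with a match in any window of the gene, it occurred in 4.38% of 27305 genes. Of the 33 effector genes of the list that the table holds, 25 had it (75.8%). Within the list, 11 of the 15 matched members called lower and 10 of the 14 matched members not called had it, so its presence did not separate them. Over all genes called lower in the comparison, 3.93% of the 737 matched had it, beside 3.87% of the 13189 tested genes matched. A match describes the letters and is not evidence of binding.

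OASL, an OAS-like antiviral protein gene at chr12:121019111-121039242 (hg38, GENCODE 29), had 12.4 and 13.2 CPM at 4 days of MS023 and 0.708 and 0.724 CPM at 7 days. Both 7-day libraries lay far below both 4-day libraries, and the fall was 17.6-fold, or 4.13 ± 0.33 (SE, n = 2 per group) on the log2 scale (edgeR adjusted p = 2.4e-13). The 7-day values rest on 10 and 10 counts. Untreated cells had 1.22 and 0.806 CPM and cells at 2 days of MS023 10.8 and 9.41 CPM, so OASL was high at 2 and 4 days and below the untreated libraries at 7.

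IFIT1, whose protein binds viral RNA ends (chr10:89392546-89406486), had 13.6 and 17.4 CPM at 4 days and 1.42 and 1.59 CPM at 7 days. It fell 10.3-fold, by 3.36 ± 0.26 on the log2 scale (edgeR adjusted p = 7.7e-14). The libraries of the groups were well apart, and the 7-day values were close to the untreated ones of 1.33 and 1.41 CPM. OAS1, which makes the messenger that activates RNase L, had 10.7 and 12.3 CPM at 4 days and 2.12 and 3.33 CPM at 7 days, a fall of 2.07 ± 0.25 (edgeR adjusted p = 3.4e-08). Both 7-day libraries of OAS1 were below the untreated libraries, which had 4.67 and 4.03 CPM.

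MX1, a GTPase that blocks viral nucleocapsids, had 15.5 and 18.1 CPM at 4 days and 4.25 and 5.28 CPM at 7 days and fell by 1.81 ± 0.21 (edgeR adjusted p = 3.1e-08). Its 7-day libraries stayed above the untreated ones (2.67 and 3.12 CPM). IFI6, a gene of an interferon-induced membrane protein, went from 4.55 and 6.55 CPM to 0.283 and 0.579 CPM, with 4 and 8 counts at 7 days and a fall of 3.65 ± 0.50 (edgeR adjusted p = 8.3e-07). IFI6, like XAF1 below, does not pass the low-count filter in the 26 libraries outside the comparison. Both were tested through the 4-day libraries, where they are high, so their falls are not taken as support. DESeq2 gave IFI6 no adjusted p, and its call held under the 11 other alternatives. XAF1, an interferon-induced partner of the apoptosis inhibitor XIAP, was low throughout, with 2.13 and 2.78 CPM at 4 days and 0.212 and 0.290 CPM at 7 days, and lost its call (edgeR adjusted p = 0.0013) without 3 of the 4 libraries, taken in turn; DESeq2 gave it no adjusted p.

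Of the 40 genes listed as effectors, 36 were tested, and 4 (EPSTI1, IFI44, IFI44L and RTP4) had too few counts. At 7 against 4 days, 19 were called lower and none higher (background 4.76% lower and 4.28% higher), 35 of 36 had a log2 fold change below 0, and the median was -0.89 beside 0.01 over all genes tested. Both 7-day libraries were below both 4-day libraries for 31 of the 36, where libraries of the 2 groups did not overlap for 55% of the genes tested. Of the 36, 33 pass the low-count filter in the 26 libraries outside the comparison, with 17 of them called lower, none higher and a median of -0.85; BST2, IFI6 and XAF1 do not pass it there. Summed over the tested members, the level was 336 and 359 CPM at 4 days and 194 and 201 CPM at 7 days. Other members, named after their values were seen, were OAS3 (34.3 and 31.7 CPM at 4 days, 14.6 and 10.8 at 7 days), IFIT2 (7.46 and 8.12 and then 2.62 and 2.82 CPM) and ISG15 (7.18 and 8.83 and then 3.40 and 3.62 CPM), which were called lower too. The count of members called lower was 12 and 13 without the first and the second 7-day library, 16 and 11 without the first and the second 4-day library, 11 with DESeq2, which gave 3 of the 19 no adjusted p, and 9 with total counts. No member was called higher under these or the other alternatives.

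**Figure D2:**
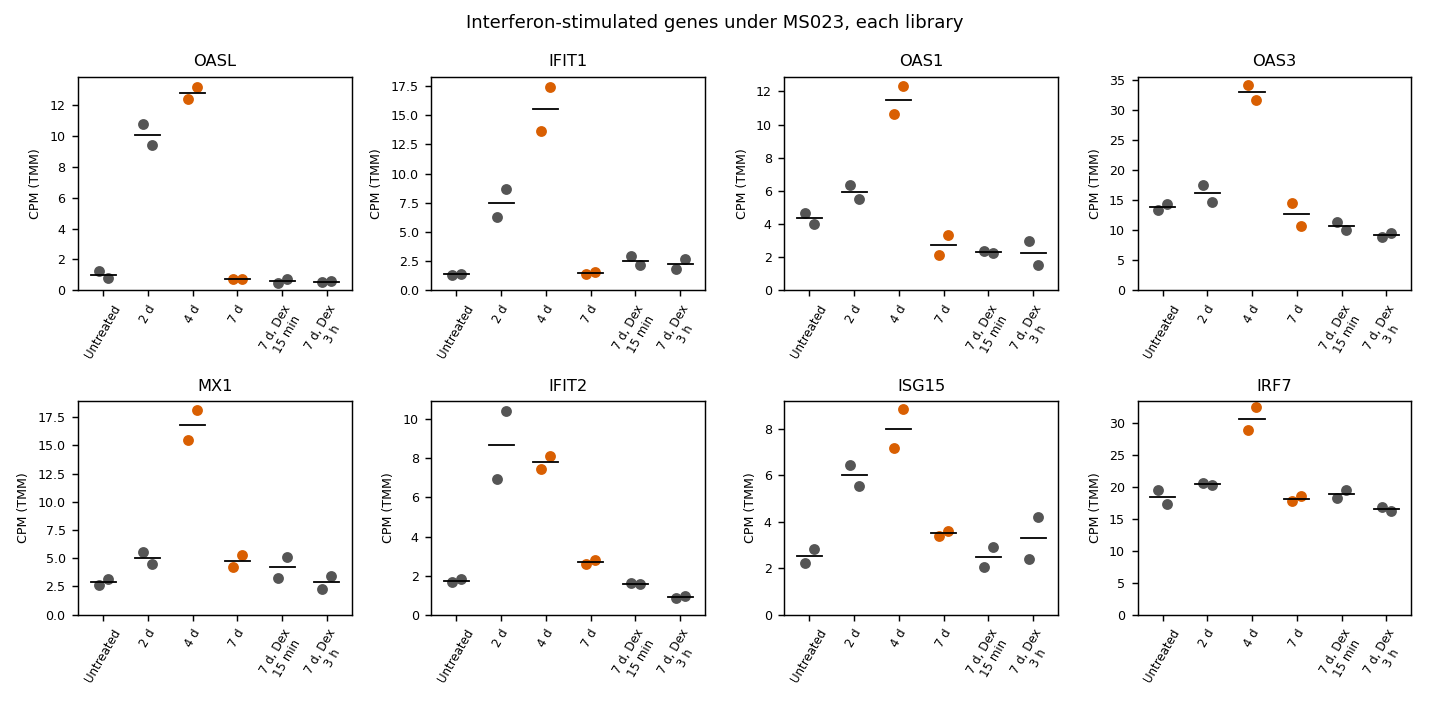
TMM-scaled CPM (linear axes from 0) of 8 genes of the interferon response in each library of untreated cells and of the MS023 groups, with the 4-day and 7-day libraries in orange and a line at each group's mean. For OASL, IFIT1 and the other 6 genes, both 7-day libraries lie below both 4-day libraries.

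The 7-day fall followed a rise between untreated cells and 4 days. Of the 36 tested effectors, 32 had both 4-day libraries above both untreated libraries, and 20 had both 7-day libraries above them. The median level over these genes was 2.53 CPM in untreated cells, 4.90 CPM at 2 days, 7.79 CPM at 4 days and 2.85 CPM at 7 days. In libraries that the comparison of 7 with 4 days does not use, 2 days of MS023 against untreated cells called 11 of the 36 higher and none lower (background 6.18% higher and 4.21% lower). In the authors' deposited table, the log2 fold change of OASL against untreated cells was 3.86 at 4 days and -0.06 at 7 days, and that of IFIT1 3.85 and 0.13.

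Cells with 7 days of MS023 and then 15 min of Dex gave another pair of 7-day libraries, which was set against the same 4-day libraries. That comparison called 3791 genes (16.5%). Of the effectors, 22 were called lower and none higher (background 9.17% lower and 7.37% higher), with a median of -1.09. OASL had 0.459 and 0.749 CPM there, IFIT1 2.91 and 2.16 CPM and MX1 3.29 and 5.08 CPM, each pair below the 4-day libraries. The 4-day libraries are shared, so this is no independent estimate of the fall from 4 days. After those 15 min of Dex, 18 of 25 glucocorticoid-induced genes were called higher, and 1 of 25 (PIK3R1, log2 fold change 0.48) in the comparison without Dex.

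Upstream of the effectors stand the sensors, interferon ligands, receptors and transcription factors. Of 33 listed, 28 were tested, 4 were called lower and 1 higher (MAVS, the adaptor of the RNA sensors, 0.35), beside a background of 4.76% lower and 4.28% higher, and the median was -0.14. IFNB1 and the 3 interferon lambda genes listed had too few counts to test. IRF7, the factor that amplifies interferon gene transcription, had 28.8 and 32.5 CPM at 4 days and 17.8 and 18.5 CPM at 7 days and fell by 0.76 ± 0.13 (edgeR adjusted p = 3.7e-05), with no overlap between the groups. IRF9, the DNA-binding subunit of the ISRE complex, went from 7.67 and 8.62 CPM to 3.54 and 4.63 CPM (log2 fold change -0.99 ± 0.23, edgeR adjusted p = 0.0025). IRF3, the sensor-activated factor, and SOCS3, a feedback inhibitor of cytokine signalling, were called lower with log2 fold changes of -0.45 and -0.46. Without 1 library, taken in turn, IRF9 (-1.20 to -0.82) lost its call in 2 cases, SOCS3 (-0.57 to -0.35) in 2 and IRF3 (-0.64 to -0.29) in 3.

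STAT2, the partner of IRF9 in that complex, had 7.75 and 7.26 CPM at 4 days and 5.45 and 7.31 CPM at 7 days and was not called (edgeR adjusted p = 0.53). IRF1 (26.2 and 22.1, then 22.5 and 21.4 CPM, adjusted p = 0.64) and ADAR, which edits double-stranded RNA (29.8 and 29.6, then 22.1 and 23.9 CPM, adjusted p = 0.18), were not called either. In the 7-day libraries with 15 min of Dex, STAT2 had 3.83 and 3.91 CPM. It was called lower there against 4 days (-0.95, edgeR adjusted p = 0.0011), while IRF1 and ADAR were not called. In the comparison without Dex, ADAR was called in 1 alternative. Of 17 genes of MHC class I antigen presentation, 2 were called lower and none higher (background 4.28% higher and 4.76% lower): PSME1, a proteasome activator subunit, with a log2 fold change of -0.65, and HLA-E, with -0.49. HLA-E lost its call with DESeq2 and without 3 of the 4 libraries in turn (-0.71 to -0.30). Reads of HLA genes can be split between near-identical copies.

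Mucin genes gave other large falls. MUC5AC, a secreted gel-forming mucin of the airway (chr11:1157953-1201138), had 25.3 and 30.8 CPM at 4 days and 2.27 and 3.40 CPM at 7 days. It fell 9.88-fold, by 3.30 ± 0.54 on the log2 scale (edgeR adjusted p = 0.0011), and both 4-day libraries were above both 7-day ones. Its neighbour MUC5B went from 103 and 91.5 CPM to 30.0 and 36.7 CPM, a fall of 1.55 ± 0.16 (edgeR adjusted p = 4.5e-07). Untreated cells had 15.5 and 13.0 CPM, below both times. LINC02688, a long non-coding RNA gene on the same chromosome (chr11:1049880-1055749), fell from 10.7 and 11.3 CPM to 3.05 and 1.88 CPM.

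Among 22 tested genes of the epithelial and lung lineage, 5 were called lower and 1 higher (background 4.28% higher and 4.76% lower), with a median of -0.19. Beside the mucins and KLF5, an epithelial Krüppel-like factor (-0.48), FOXA2, a pioneer factor of lung and gut epithelium, fell by 0.62 ± 0.12 (37.4 and 42.7 CPM, then 28.3 and 24.0 CPM) and the keratin gene KRT7 by 0.54 ± 0.10 (164 and 164 CPM, then 111 and 114 CPM). KRT18, the keratin that moved the other way, rose by 0.39, and lost its call when any 1 of the 4 libraries was left out (0.37 to 0.40). With total counts the calls of FOXA2, KRT7 and KRT18 were lost. In the 7-day libraries with 15 min of Dex, KRT7 had 150.5 and 159.7 CPM and was not called against 4 days (-0.08, edgeR adjusted p = 0.65), nor was KLF5 (0.17, adjusted p = 0.42), while MUC5AC (-3.33), MUC5B (-1.98) and FOXA2 (-1.02) were called lower and KRT18 (0.56) higher.

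Fibrinogen genes, which the liver makes for clotting and lung epithelial cells can also transcribe, fell together. FGA had 33.5 and 38.1 CPM at 4 days and 14.1 and 17.1 CPM at 7 days (log2 fold change -1.20 ± 0.14, edgeR adjusted p = 1.3e-08), and FGB 4.62 and 5.84 CPM and then 0.992 and 1.38 CPM (-2.13 ± 0.37, adjusted p = 9.3e-05). Both genes had their 7-day libraries below the 4-day ones. For FGA these remained above untreated cells, which had 2.45 and 2.42 CPM. They were the called members among 17 tested acute phase genes (background 4.76% lower), with none called higher. In the 7-day libraries with Dex, FGB was again called lower (-1.64) and FGA, at 29.8 and 29.2 CPM, was not called (-0.28, edgeR adjusted p = 0.14).

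The other genes with the largest falls belong to no list used here. TGM2, the tissue transglutaminase that cross-links proteins, had 25.4 and 25.9 CPM at 4 days and 7.22 and 7.17 CPM at 7 days, a fall of 1.83 ± 0.13 (edgeR adjusted p = 1.4e-14). Untreated cells had 32.8 and 30.2 CPM, so TGM2 was slightly below the untreated level at 4 days and well below it at 7. INSL4, an insulin-like peptide gene known from placenta, fell from 11.5 and 9.90 CPM to 3.26 and 1.81 CPM. SOX21-AS1, a long non-coding RNA gene, went from 7.96 and 10.1 CPM to 2.48 and 2.24 CPM, and FNDC11 from 11.4 and 10.9 CPM to 3.19 and 3.04 CPM. Each of these 4 genes had both 7-day libraries below both 4-day ones, and their calls held under the 12 alternatives run.

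Rises were led by CCL2, the monocyte chemokine at chr17:34255218-34257203, with 2.42 and 2.06 CPM at 4 days and 16.6 and 12.4 CPM at 7 days. This is a rise of 2.69 ± 0.22 on the log2 scale, or 6.45-fold (edgeR adjusted p = 6.3e-13). Untreated cells had 6.01 and 6.55 CPM, so the level was below theirs at 4 days and above it at 7. HSPB8, a small heat shock protein gene that acts in chaperone-assisted autophagy, had 3.20 and 3.20 CPM at 4 days and 11.6 and 14.9 CPM at 7 days (log2 fold change 2.05 ± 0.22, edgeR adjusted p = 2.7e-09). Here untreated cells, at 3.45 and 4.63 CPM, were close to the 4-day level.

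JUN, the AP-1 subunit that starts many stress and growth responses, had 20.5 and 19.7 CPM at 4 days and 64.6 and 75.2 CPM at 7 days. It rose 3.48-fold, by 1.80 ± 0.12 on the log2 scale (edgeR adjusted p = 5.3e-15), with the groups far apart. The order over the series was not one-way: JUN had 49.9 and 57.3 CPM in untreated cells and 32.5 and 30.9 CPM at 2 days, so it was lowest at 4 days. TNFRSF12A, the receptor of the cytokine TWEAK, was also lowest at 4 days but stayed below the untreated level at 7, with 103 and 113 CPM in untreated cells, 52.9 and 51.9 CPM at 2 days, 30.2 and 32.4 CPM at 4 days and 87.3 and 86.3 CPM at 7 days (log2 fold change from 4 to 7 days 1.47 ± 0.11, edgeR adjusted p = 3.2e-14).

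The promoter of JUN is shown because it holds an AP-1 type element to which JUN itself is known to bind. The 200 bases before its RefSeq start are printed with the match to TGANNTCA in capitals, 67 bases before the start.
JUN, chr1:58784048-58784247, minus strand: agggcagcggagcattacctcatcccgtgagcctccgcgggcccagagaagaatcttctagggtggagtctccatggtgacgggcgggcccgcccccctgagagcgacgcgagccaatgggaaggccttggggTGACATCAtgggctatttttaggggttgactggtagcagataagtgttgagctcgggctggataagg
In the windows of 300 bases, TGANTCA (the AP-1 site) and TGANNTCA (the longer site that CREB and ATF factors also bind) were searched. Both read the same on either strand, and a window can hold both. TGANTCA occurred in 11.4% of the 604 matched genes called higher, 7.26% of the 13189 tested genes matched and 4.61% of the 737 matched genes called lower. TGANNTCA occurred in 14.4%, 11.7% and 8.55% of them. These shares describe letters near starts and were not tested.

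Of 30 tested AP-1 and immediate early genes, 9 were called higher and 5 lower (background 4.28% higher and 4.76% lower), with a median of 0.07. CCN2, a matricellular growth factor and a known target of YAP, had 9.59 and 9.97 CPM at 4 days and 23.4 and 24.0 CPM at 7 days (log2 fold change 1.28 ± 0.14, edgeR adjusted p = 3.9e-09). EGR1, a growth factor-induced zinc finger factor, rose from 2.34 and 2.71 CPM to 5.45 and 5.43 CPM. NR4A1, an orphan nuclear receptor of the same early class, moved the other way, from 20.3 and 17.4 CPM to 6.73 and 6.88 CPM (log2 fold change -1.47 ± 0.17, edgeR adjusted p = 1.9e-08). Members of the class were thus called in both directions, and the libraries of 4 and 7 days did not overlap for these 3 genes. The other members called lower were NR4A2 (-0.56), JUNB (-0.56), KLF4 (-0.51) and DUSP4 (-0.37). EGR1 lost its call without the first 4-day library (1.00 to 1.21 over the libraries left out in turn).

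ANKRD1, another gene known as a YAP target, had 3.06 and 2.28 CPM at 4 days and 8.22 and 10.5 CPM at 7 days (log2 fold change 1.80 ± 0.24). Among 35 matrix, TGF-beta and mesenchymal genes, 5 were called higher (background 4.28%) and 2 lower, the latter near the background of 4.76%, and the median was 0.03. TGFB2, a TGF-beta ligand, rose by 0.76, TPM1, a tropomyosin, by 0.54, BMP4 by 0.49 and the matrix protein gene THBS1 by 0.41. SNAI1, a repressor of epithelial genes, fell by 0.92 and TGFB1 by 0.45. The summed fibroblast markers given above were higher at 7 days too, while COL1A2, DCN and LUM had 0 to 8 counts, and their part in these changes was not tested.

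**Figure D3:**
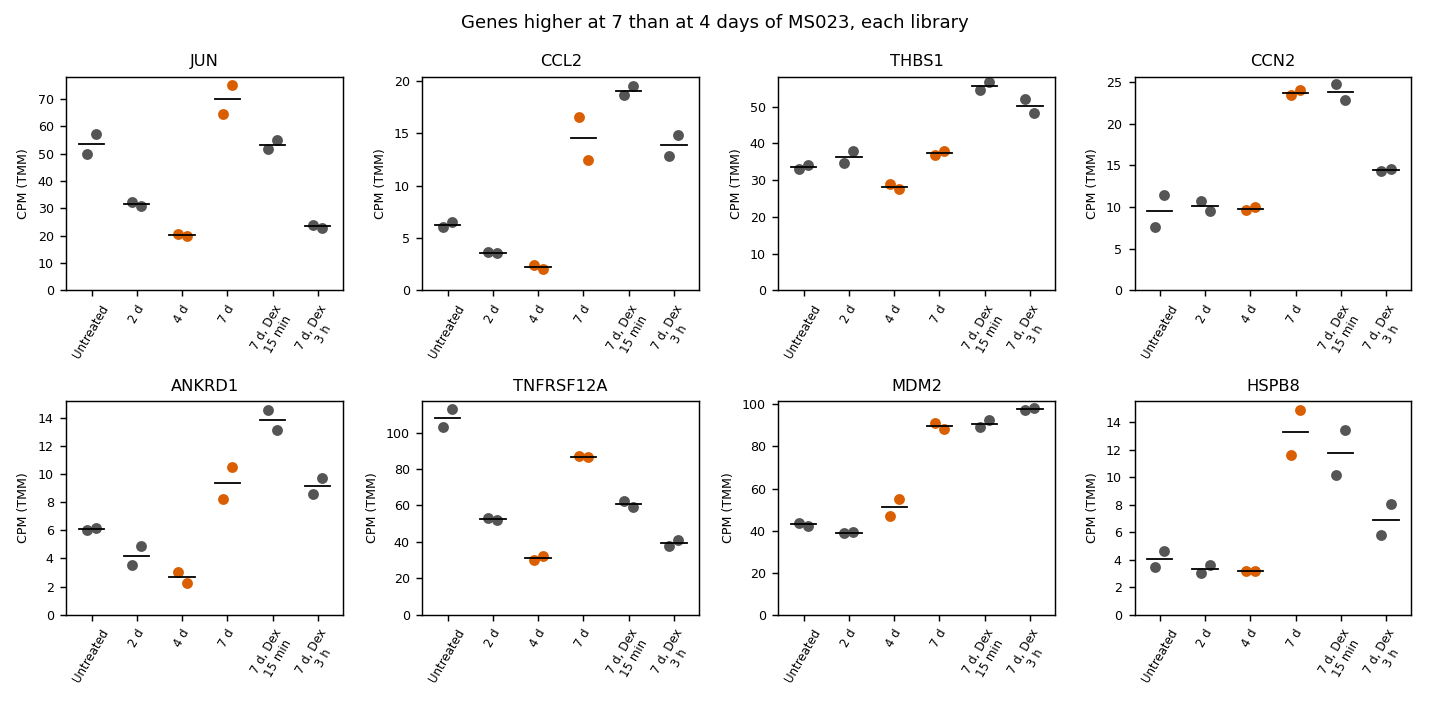
TMM-scaled CPM (linear axes from 0) of 8 genes called higher at 7 than at 4 days of MS023, in each library of untreated cells and of the MS023 groups, with the 4-day and 7-day libraries in orange and a line at each group's mean. JUN, CCL2, THBS1, ANKRD1 and TNFRSF12A are lowest at 4 days, and MDM2, CCN2 and HSPB8 are near the untreated level at 4 days and above it at 7.

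The NF-kB and cytokine list also had calls in both directions, with 3 of 28 tested members called higher and 6 lower (background 4.28% higher and 4.76% lower) and a median of -0.20. The falls included NFKBIZ, an atypical I-kappa-B protein gene (108 and 124 CPM at 4 days, log2 fold change -0.87 ± 0.11, edgeR adjusted p = 3.2e-07), and PTGS2, the inducible cyclooxygenase, from 16.6 and 18.0 CPM to 8.99 and 8.32 CPM (adjusted p = 7.8e-05). The NF-kB subunit genes NFKB2 (-0.59) and RELB (-0.76) and the inhibitor gene NFKBIE (-0.63) fell too, and for these 5 genes both 7-day libraries were below both 4-day ones. Beside CCL2, the cytokine gene LIF rose from 9.02 and 6.19 CPM to 17.2 and 17.8 CPM (log2 fold change 1.20 ± 0.16) and the neutrophil chemokine CXCL8 from 1.35 and 1.07 CPM to 2.34 and 3.11 CPM (1.16 ± 0.35). CCL5, a chemokine that interferon signalling also induces, fell from 1.92 and 2.21 CPM to 0.496 and 0.724 CPM (-1.74 ± 0.54). The call of CXCL8 (edgeR adjusted p = 0.027) was lost with DESeq2 and without 3 of the 4 libraries in turn (0.95 to 1.35). That of CCL5 (edgeR adjusted p = 0.033) was lost with total counts and without any 1 of the 4 libraries (-2.03 to -1.50), and DESeq2 gave it no adjusted p. The other named rises were HKDC1, a hexokinase-like gene (7.75 and 6.91 CPM, then 22.2 and 20.5 CPM), RBM24, an RNA-binding protein gene (2.84 and 3.28, then 8.14 and 10.4 CPM), TRIML2 (3.77 and 3.77, then 11.0 and 14.6 CPM), IFITM10 (6.04 and 6.62, then 15.7 and 19.4 CPM) and the long non-coding gene AC103718.1 (3.13 and 1.42, then 9.21 and 7.38 CPM). IFITM10 carries the name of an interferon-induced family and rose while the effectors fell.

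Targets of p53, which A549 cells carry in its normal form, moved upward as far as they were called. Of 30, 8 were called higher and none lower (background 4.28% higher), 24 had a log2 fold change above 0, and the median was 0.26. MDM2, the ligase that degrades p53, had 47.0 and 55.0 CPM at 4 days and 91.4 and 88.3 CPM at 7 days (log2 fold change 0.82 ± 0.11, edgeR adjusted p = 4.5e-07). FAS, a death receptor, rose from 2.13 and 2.21 CPM to 5.95 and 6.08 CPM (1.47 ± 0.26), SPATA18 by 0.90 and PHLDA3, an inhibitor of AKT, by 0.58. SPATA18 lost its call without 3 of the 4 libraries in turn (0.79 to 1.02) and PHLDA3 without the first 4-day library (0.47 to 0.70). The count of called targets was 3 to 12 over the alternatives, and none was called lower in them.

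The 26 NRF2 targets, which guard against oxidants and are active in A549 because its KEAP1 is mutated, had 5 called higher and none lower (background 4.28% higher and 4.76% lower), with a median of 0.22. OSGIN1 rose from 41.2 and 42.6 CPM to 72.6 and 75.6 CPM (log2 fold change 0.82 ± 0.10, edgeR adjusted p = 1.2e-07). GCLM, a subunit of the enzyme of glutathione synthesis, rose by 0.78 ± 0.20, HMOX1, the haem oxygenase, by 0.68 ± 0.14, and the exporter ABCC2 by 0.61 ± 0.18. TALDO1, an enzyme of the pentose phosphate path, rose by 0.52. When each of the 4 libraries was left out in turn, ABCC2 lost its call in each case (0.52 to 0.71), GCLM in 3 (0.61 to 0.98) and HMOX1 in 2 (0.55 to 0.81). The list held 1 to 10 called members over the alternatives, none of them lower.

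The integrated stress response list moved both ways, with 7 of 34 called higher and 3 lower (background 4.28% higher and 4.76% lower) and a median of -0.03. ATF3 rose by 0.94 ± 0.25 and NUPR1, a small chromatin protein, from 24.3 and 22.8 CPM to 38.6 and 44.2 CPM (0.81 ± 0.14, edgeR adjusted p = 1.0e-04). CHAC1, which degrades glutathione, fell from 18.5 and 20.5 CPM to 11.7 and 8.69 CPM (-0.93 ± 0.15), the factor CEBPB by 0.70 ± 0.12 and DDIT4, an inhibitor of mTORC1, by 0.43. ATF3 lost its call without 3 of the 4 libraries in turn (0.87 to 1.00). Hypoxia and glycolysis genes had 3 of 28 higher and 2 lower, beside the same background. Of these, ADM, a vasodilator peptide, rose from 141 and 142 CPM to 243 and 256 CPM, GAPDH by 0.48 and the demethylase gene KDM3A by 0.59, while LDHA fell by 0.45 and ANKRD37 by 0.38. KDM3A (0.42 to 0.73) and LDHA (-0.53 to -0.37) lost their calls without the second library of either group.

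Among growth and cell cycle genes, the mitosis and histone lists had calls downward and none upward. The counts called lower ran from 0 to 12 and from 0 to 9 over the alternatives. For the mitosis list, the share called was near the background of 9.04% in either direction. Of 38 genes of mitosis and G2/M, 4 were called lower and none higher (background 4.28% higher and 4.76% lower), with a median of -0.30: PTTG1, the securin (-0.81 ± 0.21), AURKA, a spindle kinase (-0.76 ± 0.17), NUSAP1 (-0.70 ± 0.23) and BIRC5, survivin (-0.59 ± 0.14). NUSAP1 lost its call under 8 of 12 alternatives. With 1 library left out in turn, PTTG1 (-0.84 to -0.78) was not called in 4 cases, AURKA (-0.87 to -0.65) in 1 and BIRC5 (-0.64 to -0.54) in 1. Of 39 replication and G1/S genes, 3 were called, near the background of 9.04% in either direction: CCNE1, cyclin E, was called higher (0.77), and TK1 (-0.44) and MCM5 (-0.50) were called lower. CCNE1 (0.61 to 0.94) and MCM5 (-0.54 to -0.47) lost their calls when any 1 library was left out, and TK1 (-0.51 to -0.37) in 2 of 4 cases. Of 19 replication-dependent histone genes, 5 were called lower and none higher (background 4.76% lower), with a median of -0.29. The linker histones H1-5 and H1-3 (94.3 and 115 CPM, then 63.0 and 64.1 CPM for the latter) fell by 0.74 and 0.72, H4C3 by 0.69, H1-2 by 0.45 and the H3 gene listed as HIST1H3B by 0.33. Histone genes are near-identical copies. The calls of the first 4 were lost with total counts and without 2 or 3 of the 4 libraries in turn (H1-5 -0.89 to -0.57, H1-3 -0.86 to -0.57, H4C3 -0.75 to -0.63, H1-2 -0.56 to -0.33), and those of the 4 mitosis genes with total counts. Of 19 cyclin D, CDK inhibitor and RB family genes (background 4.28% higher), CDK6 (0.56) and CDKN2C (0.51) were called higher, and CDKN1C was not called (edgeR adjusted p = 0.87). CDK6 (0.51 to 0.62) lost its call without 2 of the 4 libraries in turn and CDKN2C (0.29 to 0.76) without 3.

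Of 43 cytosolic ribosomal protein genes, 5 were called higher and none lower (background 4.28% higher and 4.76% lower), with a median of 0.13. RPS12 rose from 12.8 and 12.8 CPM to 24.0 and 19.5 CPM (0.76 ± 0.14), and RPS6 (0.47), RPL10 (0.44), RPL32 (0.35) and RPL3 (0.34) were the others. These genes share sequence with many pseudogenes, and with 1 library left out in turn RPS6 (0.42 to 0.52) and RPL10 (0.42 to 0.47) kept a call in 1 of 4 cases and RPL32 (0.27 to 0.44) in 0. The next 3 lists had shares called near or below the background of 9.04% in either direction. Of 35 ribosome biogenesis genes, FBL, the methyltransferase of ribosomal RNA and a protein that PRMT1 is known to methylate, was the 1 called, with 15.3 and 20.0 CPM at 4 days and 10.9 and 10.6 CPM at 7 days (-0.72 ± 0.19). Of 32 hnRNP and related RNA-binding protein genes, RBM3, a cold-induced protein (0.49), and HNRNPL (0.32) were called higher and FBL lower. Of 31 SR protein and spliceosome genes, SRSF7 was called higher (0.54 ± 0.11), and SRSF9 (-0.50) and SNRPB (-0.44) lower. With 1 library left out in turn, FBL (-0.90 to -0.52) lost its call in 3 cases, RBM3 (0.42 to 0.55) in 2, SRSF9 (-0.68 to -0.35) in 3, and HNRNPL (0.29 to 0.34) and SNRPB (-0.54 to -0.34) in 4. Of 29 sterol and fatty acid synthesis genes, HMGCS1, an early enzyme of the sterol path, rose (0.61).

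Other genes named here as changed were not called in the same direction in the 7-day libraries with 15 min of Dex, set against the same 4-day libraries. CEBPB was called higher there (0.36, edgeR adjusted p = 0.031). BMP4 (-0.28), LDHA (0.18), KLF4 (0.07) and DDIT4 (0.03) had the opposite sign and were not called. ANKRD37, CCL5, CCNE1, CDKN2C, CMPK2, DUSP4, HMOX1, HNRNPL, KDM3A, MAVS, PHLDA3, PTTG1, SNAI1, SRSF9 and TALDO1 kept their sign and were not called. Dex and the second pair of 7-day libraries cannot be told apart in these values.

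None of the 7 tested arginine methyltransferase genes was called by edgeR at 7 against 4 days, and none had an unadjusted p below 0.05 or was called under any of the alternatives. PRMT1, the main target of the inhibitor, had 43.3 and 44.9 CPM at 4 days and 45.8 and 43.4 CPM at 7 days (log2 fold change 0.02 ± 0.11). PRMT2, PRMT3, CARM1, PRMT5, PRMT7 and PRMT9 had log2 fold changes of -0.23, -0.08, 0.38, 0.10, -0.24 and -0.37. Transcription of these genes says nothing of the activity of the enzymes.

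**Figure D4:**
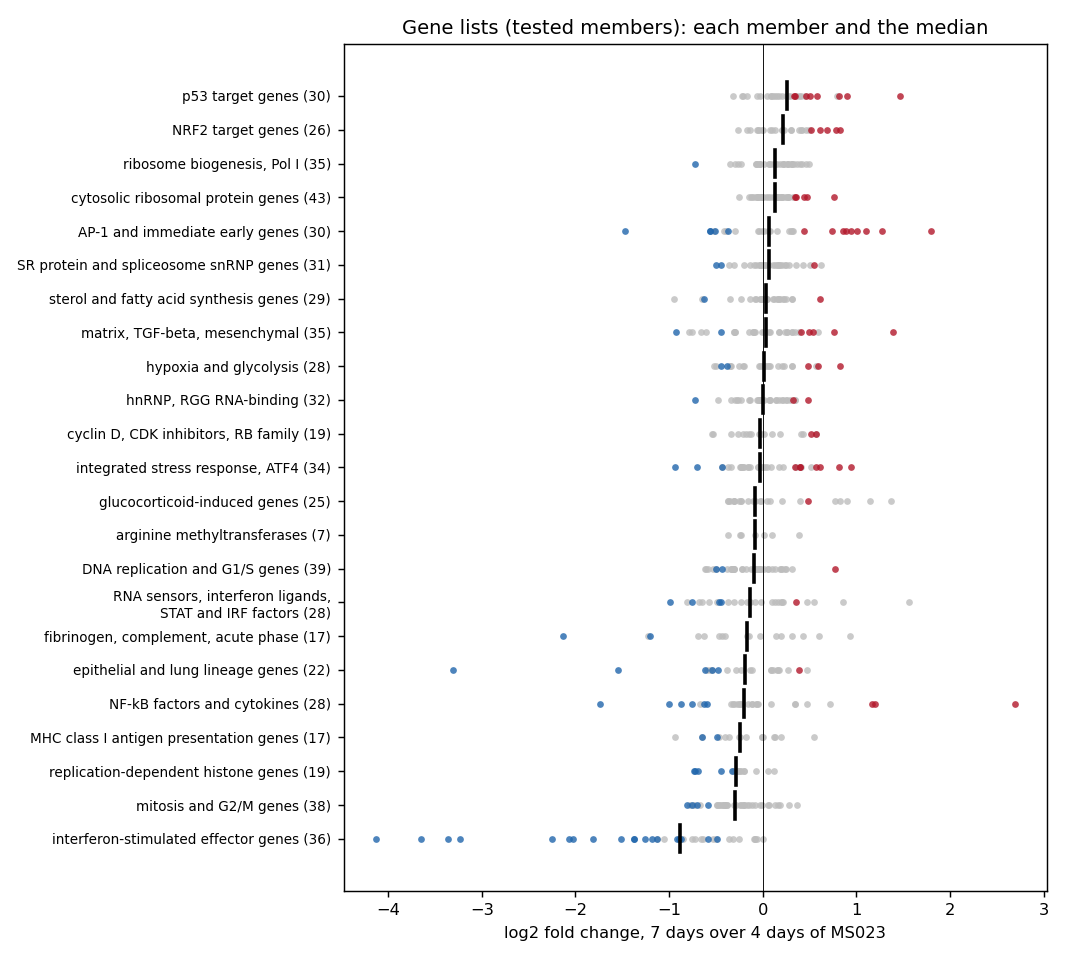
Each point is a tested member of a gene list, placed by its log2 fold change at 7 against 4 days of MS023, with members called higher in red, members called lower in blue and the list's median as a black bar; the number tested is in brackets. Of the lists plotted, which leave out the cell type markers, the interferon-stimulated effectors have the lowest median (-0.89) and the p53 targets the highest (0.26). With total counts, which put the median gene at 0.27, the effectors (-0.61), the mitosis list (-0.02) and the histone list (-0.01) had medians below 0 and the other lists above it.

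The same interval under GSK591, in 4 libraries that the MS023 comparison does not use, was set beside these changes. GSK591 called 1901 genes at 7 against 4 days (8.29%), 928 higher and 973 lower, and 675 to 1005 without 1 of its 4 libraries in turn. Of the 981 genes that rose with MS023, 325 (33.1%) were called higher with GSK591 (background 4.05%) and 2 lower. Of the 1092 that fell, 382 (35.0%) were called lower (background 4.25%) and 8 higher. Across the 11085 genes whose mean reached 5 CPM, which are not independent, the 2 sets of changes had r = 0.585 and Spearman's rho = 0.560. JUN rose by 2.09 with GSK591, CCN2 by 1.50 and ANKRD1 by 2.11, each called. FGA fell by 1.68, MUC5B by 1.04 and MUC5AC by 2.29, also each called. For these 6 genes the change with MS023 minus that with GSK591 was not called, and ran from -1.01 ± 0.79 (SE) for MUC5AC to 0.47 ± 0.22 for FGA, which does not show that the changes were equal.

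The difference between the inhibitors was called for 64 genes (0.279%), 15 with a change more upward under MS023 (0.0654%) and 49 with one more downward (0.214%). Without 1 of the 8 libraries in turn the count was 30 to 49, and with total counts, where the median of all differences was 0.72, it was 2002 upward and 8 downward. Of the 36 effectors, 8 were among the 49: IFI6, OASL, IFIT1, MX1, CMPK2, IFIT2, OAS3 and LGALS3BP (CMPK2 and LGALS3BP, like OAS3 and IFIT2, were named after their values were seen). IFI6 was tested only through the 4-day MS023 libraries, where it is high, so its difference is not taken as support. With GSK591 the list's median was 0.09, and 3 members were called higher and 1 lower (background 4.05% higher and 4.25% lower). The GSK591 libraries of 4 and 7 days held 1686224 to 2343062 nuclear counts, fewer than those of MS023. IFIT1 had 1.73 and 2.81 CPM at 4 days of GSK591 and 2.32 and 2.28 CPM at 7 days, so its level there was low at both times, and the changes under the inhibitors differed by -3.39 ± 0.44 (edgeR adjusted p = 4.0e-06). MX1 had 2.11 and 1.60 CPM and then 3.84 and 3.62 CPM with GSK591, a called rise, and a difference of -2.81 ± 0.39 (adjusted p = 1.5e-05). OAS1 was not among the 8, with a difference of -1.12 ± 0.42 (adjusted p = 0.33).

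HELZ2, a helicase coactivator that interferon induces, had 74.9 and 75.1 CPM at 4 days of MS023 and 32.9 and 35.2 CPM at 7 days, against 12.5 and 10.7 CPM and 13.3 and 19.0 CPM with GSK591 (difference -1.60 ± 0.19, edgeR adjusted p = 2.7e-07). TGM2 had 24.9 and 26.4 CPM and then 20.7 and 22.4 CPM with GSK591, which was not called as a change (difference -1.58 ± 0.18, adjusted p = 2.7e-07). In the other direction, RAP1GAP, which switches off the GTPase RAP1, rose under MS023 from 12.4 and 9.83 CPM to 19.0 and 21.1 CPM and had 11.4 and 12.0 and then 8.25 and 7.91 CPM with GSK591 (difference 1.39 ± 0.27, adjusted p = 0.0036). INTS7, a subunit of the Integrator complex, and GAS2L3, a cytoskeletal linker, were not called under MS023 (7.96 and 7.26, then 9.84 and 9.55 CPM, and 7.82 and 6.91, then 7.79 and 6.88 CPM) and fell under GSK591 (-0.94 and -1.46 on the log2 scale, differences 1.29 ± 0.27 and 1.45 ± 0.35).

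**Figure D5:**
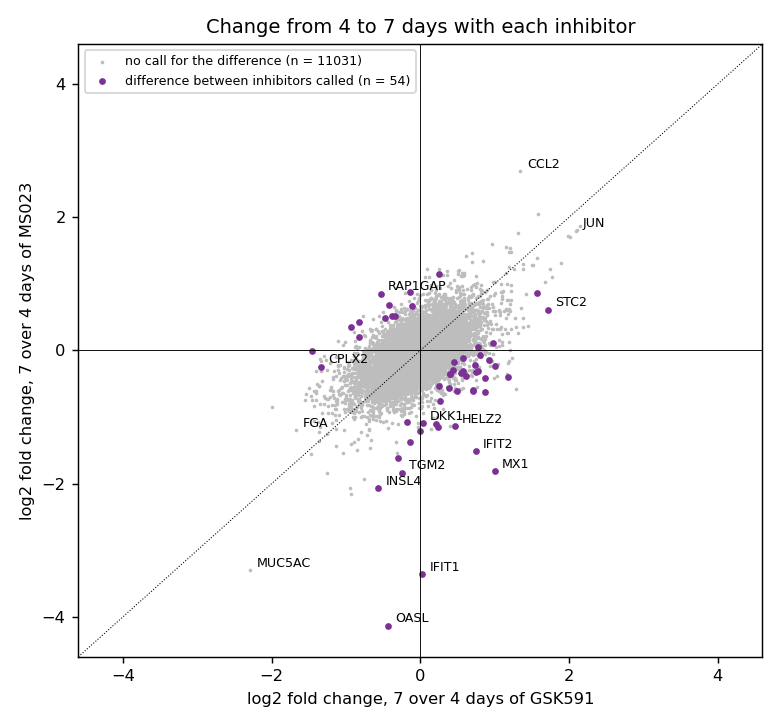
Each point is 1 of 11085 genes whose mean reached 5 CPM, placed by its log2 fold change at 7 against 4 days of GSK591 (horizontal) and of MS023 (vertical), with the dotted line at equal change. Purple points are the 54 plotted genes whose difference between inhibitors was called; IFIT1, OASL and MX1 lie far below the line, while JUN lies near it.

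The genes called from 4 to 7 days were also followed at 2 days against untreated cells, in libraries the interval does not share. Of the 1092 genes called lower, 279 (25.5%) were called higher at 2 days of MS023 against untreated cells (background 6.18%) and 33 lower. That comparison called 2381 genes (10.4%), and 964 to 1261 without 1 of its 4 libraries in turn. Of the 981 called higher, 64 were called higher at 2 days and 125 (12.7%) lower (background 4.21%). OASL (3.31), IFIT1 (2.43), FGA (3.04), CEBPB (1.69) and CHAC1 (1.57) were called higher at 2 days on the log2 scale, and JUN (-0.76) and TNFRSF12A (-1.04) lower. NUPR1, higher at 2 days (1.76), rose again from 4 to 7 days, and MUC5AC was not called at 2 days (-0.63).

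Reads of overlapping genes cannot be told apart here, and some of the genes named overlap another annotated gene. On the same strand these are FOXA2, GAS2L3, HNRNPL, IFIT2, IFITM10, IRF9, MDM2, MTAP, NUSAP1, OSGIN1, PHLDA3, PRMT1, RPL10, RPL3, RPL32, SNRPB and TGFB2. On the opposite strand they include the interferon genes OAS1, MX1, IFIT2, ISG15, XAF1, IRF1, IRF3 and PSME1. TGM2, MUC5B, NR4A1, TNFRSF12A, CCN2, HKDC1, FAS, LIF, TPM1, THBS1, TGFB1, JUNB, CEBPB, DDIT4, KRT7, KRT8 and KRT18 are others, as are ANKRD37, CDH1, GAPDH, HMGCS1, CDK6, CARM1, MTAP, PRMT5, PRMT7, RBM3, RPS6 and SRSF9. Their values may hold reads of the partner. OASL, IFIT1, IFI6, OAS3, IRF7, HELZ2, MUC5AC, FGA, FGB, JUN, ANKRD1, CCL2, HSPB8, NFKBIZ, PTGS2, NFKB2, RELB and NFKBIE overlap no annotated gene.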

How the data were processed

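The starting point was the authors' deposited table of raw read counts per gene for PRO-seq of A549 cells, with reads aligned to hg38 and counted with featureCounts 2.0.1 of Subread, per the submitters' processing notes. Whether counting used strand is not given in the sources used here, so reads of overlapping genes cannot be told apart. The 58780 gene IDs matched GENCODE 29, which gave names and coordinates. In the authors' deposited tables of comparisons, log2 fold changes and p-values with adjusted p-values were read, per the file headers; their DESeq2 column names are the authors', and the counting behind them is not given in the sources used here.

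Counts of the 30 libraries were filtered (filterByExpr, minimum count 10, minimum total 15), scaled by TMM and fitted together in edgeR 4.0.16 (R 4.3.3) with a robust quasi-likelihood fit, 15 residual degrees of freedom, a common biological coefficient of variation of 10.6% and Benjamini-Hochberg adjustment over 22919 genes at 0.05. Contrasts were MS023 at 7 against 4 days, the same with Dex for 15 min at 7 days, GSK591 at 7 against 4 days, the difference of the 2 inhibitors' changes, and MS023 at 2 days against untreated. On simulated data (22900 genes, 200 changed), the first contrast recovered 13.4% of genes set to a log2 change of 0.5, 49.3% of those set to 1 and 80.3% of those set to 2. Of its calls 8.65% were false, above the threshold of 0.05. The data gave 2073 calls, and with fewer changed genes the adjustment is stricter. These shares therefore do not measure what was missed in the data. Alternatives were other scalings, no filter, no mitochondrial or ribosomal RNA genes, DESeq2 1.42.0, a fit of only the groups compared, a replicate block and each library left out.

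The members and the gene lists were chosen with earlier results of these data known. Genes named are the 10 largest called rises and falls with a mean of at least 5 CPM and groups that do not overlap, up to 4 called members of each list with the largest change, or the 2 with the smallest p where none was called, a fixed set around the PRMTs and interferon factors, and the 3 largest called differences between inhibitors in each direction. OAS3, IFIT2, ISG15, CMPK2, LGALS3BP, MAVS, KLF5, CLDN4, NR4A2, JUNB, KLF4, DUSP4, BMP4, THBS1, TGFB1, TALDO1, DDIT4, ANKRD37, RPL3, HIST1H3B, NFKBIZ, PTGS2, NFKB2, RELB, NFKBIE and the small nuclear RNA genes were named after their values were seen. Results of a few genes that the rule selects are not reported here. Promoter sequences are from RefSeq on GRCh38.p14, whose table held 13189 of the tested genes and 33 of the 40 effectors.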

Additional observations from a re-analysis of the deposited data

Results flagged for a closer look

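The test of the difference between the 2 inhibitors, in libraries that the groups do not share, called 64 genes whose change from 4 to 7 days was not the same with MS023 as with GSK591 (edgeR). The values below are the log2 change with MS023 minus that with GSK591, for the genes of the lists or of the fixed naming rule. Interferon-stimulated effectors had IFI6 at -6.03, OASL at -3.70, IFIT1 at -3.39, MX1 at -2.81, CMPK2 at -2.50, IFIT2 at -2.26, OAS3 at -1.24 and LGALS3BP at -0.89. IFI6 had 0 and 0.201 CPM at 4 days of GSK591, so the size of its difference depends on the prior count. It also passed the low-count filter only through the 4-day MS023 libraries. HELZ2 had a difference of -1.60 and the interferon factor IRF7 of -1.03. TGM2, the transglutaminase, had -1.58, INSL4 had -1.51 and the keratin gene KRT7 had -0.79. The differences ran the other way for INTS7 (1.29), RAP1GAP (1.39) and GAS2L3 (1.45).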

How the results depend on the processing

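Of 1301 values of single named genes with an adjusted p under the alternatives, 1131 kept their side of the threshold. Another 168 kept the direction and lost the call, and 2 (ADAR and COL1A1, with the compared groups alone) gained one. Where the main fit or the alternative called the gene, 0 changed direction. Changes of sign in genes called in neither were not counted, and MTAP, near 0 in the main fit, ran from -0.10 to 0.27. Scaling by DESeq2 size factors or by nuclear totals, no filter, and leaving out mitochondrial and ribosomal RNA genes kept the counts of calls within 1.5 times, from 1830 to 2115 for MS023 at 7 against 4 days, but the share of higher calls moved by over 10 percentage points with no filter for the comparison with Dex (1207 of 3498) and, with no filter (33 of 95) or without those genes (26 of 76), for the difference between inhibitors. Total counts gave 1050 calls for MS023 at 7 against 4 days, 9 interferon effectors, 1210 for the comparison with Dex (855 higher, 355 lower), 3663 for GSK591 (127 higher, 3536 lower), 2010 for the difference, and 9228 at 2 days against untreated (9154 higher, 74 lower); the mitochondrial share, which this scaling does not offset, differs between the groups. DESeq2 gave 922, 11, 2089, 966, 40 and 1336 for the same 6 in that order; it gave no adjusted p to 137 of the 2073 genes called for MS023 at 7 against 4 days. The compared groups alone gave 3602 for MS023, 2925 for GSK591, 276 for the difference and 3952 at 2 days. Leaving out 1 library in turn gave 679 to 1043 for MS023, 11 to 16 effectors, 1846 to 2581 with Dex, 675 to 1005 for GSK591, 30 to 49 for the difference and 964 to 1261 at 2 days; of the calls for MS023 at 7 against 4 days, 671 to 976 were kept, and the group left with 1 library was assumed to vary like the others. The replicate number as a block gave 2167 calls for MS023, 19 effectors, 3910 with Dex, 1971 for GSK591, 77 for the difference and 2462 at 2 days; same-numbered libraries correlated at 0.0994 between 4 and 7 days of MS023 and 0.0578 for GSK591, so the numbers are not shown to pair the samples. With 3104754 to 3230824 nuclear counts and 2 libraries per group, changes of 0.5 on the log2 scale were mostly missed in simulated data (13.4% called). That simulation changed 200 genes, fewer than the data called, so the share missed in the data is not known.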

Other observations

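Small nuclear RNA genes of the spliceosome belong to none of the lists, and RNU1-1 and RNU2-1 were lower at 7 than at 4 days of MS023. Of 62 tested genes annotated as snRNA, 14 were called lower and 1 higher (background 4.28% higher and 4.76% lower), with a median log2 fold change of -0.39 beside 0.01 over all genes tested. RNU1-1, a gene of the U1 RNA that recognises the start of introns, had 32.4 and 29.2 CPM at 4 days and 20.6 and 20.2 CPM at 7 days (log2 fold change -0.59 ± 0.13, edgeR adjusted p = 0.0022). RNU2-1, for the U2 RNA that pairs with the branch point, had 22.2 and 23.1 CPM and then 14.2 and 13.0 CPM (-0.74 ± 0.14, adjusted p = 4.5e-04). Both had their 7-day libraries below the 4-day ones. Under GSK591 over the same interval they changed by -1.09 and -1.24. The other 12 called lower lie within the tandem array of U2 genes that holds RNU2-1, near-identical copies between which reads may be split, so they are no separate evidence, and the count does not describe the class. The 1 called higher was RNU6-450P (1.79).

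By gene type, 661 of 14978 protein-coding genes were called higher and 906 lower, 91 of 1698 lincRNA genes higher and 46 lower, and 106 of 2241 antisense genes higher and 50 lower, beside 4.28% higher and 4.76% lower over all genes tested. With no strand in the sources used here, an antisense gene and its partner cannot be told apart. The 13 mitochondrial protein-coding genes had a median of -0.36 and none was called by edgeR.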
